A study of Williopsis jadinii with 8 samples.

Results

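In the wild type of the yeast Candida utilis, 173 of the 8604 transcripts on the array were at least 2-fold lower on xylose than on glucose and were then at least 1.5-fold higher again in the xylose-fermenting strain TMS174 on xylose. They were chosen by these measured values: a transcript had to be well above background on all 3 wild-type glucose arrays and both TMS174 arrays (7235 were), its mean on wild-type xylose arrays had to be lower than on glucose by at least 1 on the log2 scale (878 of the 7235), and its TMS174 mean had to be at least 1.5-fold the wild-type xylose mean (173 of the 878). The other 705 met the first threshold only. Both differences are therefore a description of how the set was drawn up and carry no test. The set was called restored when it was drawn up. A partial return was fixed by the rule, and the TMS174 mean reached the wild-type glucose mean for only 20 of the 173.

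Total RNA from 8 yeast cultures was labelled with Cy3 and hybridised to one-colour Agilent oligonucleotide arrays with 15208 yeast probes. Wild-type strain NBRC0988 was sampled at 10.5 h on glucose (n = 3) and at 24 h on xylose (n = 3), and TMS174 at 24 h on xylose (n = 2). Cells of both strains came from a preculture of 3 days on glucose, went into 50 ml of medium with yeast extract and peptone at a starting OD600 of 0.1, and were stirred semi-aerobically at 30 °C. Replicates were independent experiments, per the series description. The labels call NBRC0988 wild-type, give no genotype for TMS174, and the series title speaks of recombinant Candida utilis; the genes introduced are not named in the labels used here. Medium and sampling time differ together between the wild-type groups. The labels state 50 g/L xylose and 20 g/L glucose, although the names of both main media end in the same digit, so an equal amount of sugar cannot be assumed. Slide 1 held the 6 wild-type arrays and slide 2 the TMS174 pair, which means that slide and strain cannot be told apart.

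Xylose is a pentose that yeasts able to use it reduce to xylitol by xylose reductase and oxidise to xylulose by xylitol dehydrogenase. Xylulokinase then phosphorylates xylulose, which enters the pentose phosphate pathway. Glucose enters glycolysis directly, and in many yeasts its presence lowers transcripts for the use of other carbon sources and raises those for fast growth and fermentation. None of the 8604 array design identifiers (design IDs) was found among the 6184 genes that the RefSeq table lists for the Cybja1 assembly, and the files do not pair them with gene names. No function is given to any transcript here, and no pathway list could be applied. Few design IDs are named in full, 6 of them by a rule and 3 after their values were seen. Others are given by a number or as a pair, and some of those were also picked after their values were seen.

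Levels are log2 of the processed spot signal relative to the 75th percentile of the yeast probes on the same array, averaged over the probes of a design ID. They are relative to all RNA on the array, so that less of 1 transcript per cell and more of the others cannot be told apart. The median level of the 173 transcripts was -1.50, -1.51 and -1.64 on the 3 wild-type glucose arrays. On the wild-type xylose arrays it was -3.78, -3.85 and -3.80, and on the TMS174 arrays -2.66 and -2.61. The medians of the 3 groups did not overlap, with TMS174 between the wild-type groups. Across the members, the mean level on glucose ran from -7.41 to 4.84 with quartiles at -3.61 and 0.60. The quartiles over all 7235 design IDs above background in wild-type glucose and TMS174 were -3.61 and 0.12, so that the members' probe signals lay in much the same range. On wild-type xylose arrays 164 of the 173 were above background on all 3 arrays, 5 on 2 arrays, 2 on 1 array and 2 on none.

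**Figure D1:**
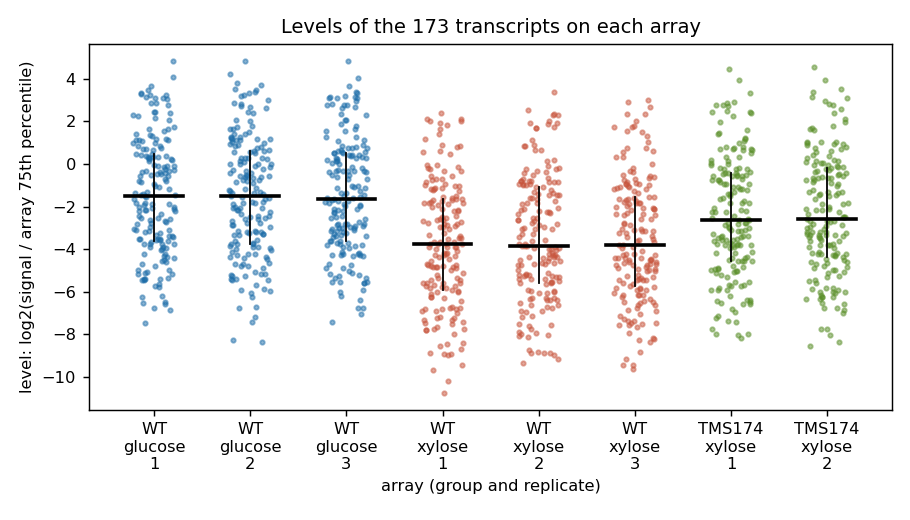
Level of each of the 173 transcripts (points) on each of the 8 arrays, as log2 of the signal over the array's 75th percentile, with the median (thick bar) and quartiles (thin line). The medians lie at -1.50 to -1.64 on wild-type glucose arrays, -3.78 to -3.85 on wild-type xylose arrays and -2.66 and -2.61 on TMS174 arrays.

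The median difference between wild-type xylose and glucose was -1.80 over the members (quartiles -2.43 and -1.37), against 0.02 over all 7970 design IDs tested. A difference of at least 4-fold was found for 68 members and of at least 8-fold for 26. The median difference between TMS174 and wild type on xylose was 0.95 (quartiles 0.72 and 1.26), against -0.04 over all tested. It was at least 2-fold for 75 members, at least 4-fold for 18 and at least 8-fold for 7. In a limma fit over all 8 arrays and 7970 design IDs, with Benjamini-Hochberg adjusted p under 0.05, 167 of the 173 were called lower on xylose in the wild type, where 34.1% of all tested were called lower. Of the members, 127 were called higher in TMS174 than in wild type on xylose, against 7.33% of all tested. These shares follow from the rule and nothing is read from them. The remaining members met the 1.5-fold threshold without passing the test between the strains. The count of 127 rested on the 2 TMS174 arrays: it was 74 without TMS174 replicate 1 and 56 without TMS174 replicate 2. It was 52 with levels set relative to spike-in controls.

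Where TMS174 stood relative to the wild type on glucose was not part of the rule, although both means were used in it. As the share of the log2 shortfall on xylose that TMS174 made up, the median over the 173 members was 52.9% (quartiles 39.9% and 73.5%, range 22.2% to 386%). With levels set relative to spike-in controls that median was 26.4%. The share was under 25% for 9 members, between 25% and 50% for 70, between 50% and 100% for 74 and at least 100% for 20. The TMS174 mean was within 2-fold of the glucose mean for 104 members, at least 2-fold below it for 66 and at least 2-fold above it for 3. In the limma fit, 113 members were called lower in TMS174 on xylose than in wild type on glucose (33.1% of all tested were), 7 were called higher (29.4% of all tested), and 53 passed in neither direction. The 2 TMS174 arrays lay below all 3 glucose arrays for 127 members, against 39.7% of all tested, and above them for 12, against 36.1%. A member needed a glucose mean at least 2-fold, but a TMS174 mean only at least 1.5-fold, its wild-type xylose mean. The unequal thresholds favour TMS174 means below glucose, so these shares are not independent of the choice. Strain, sugar, time and slide all differ in this contrast.

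**Figure D2:**
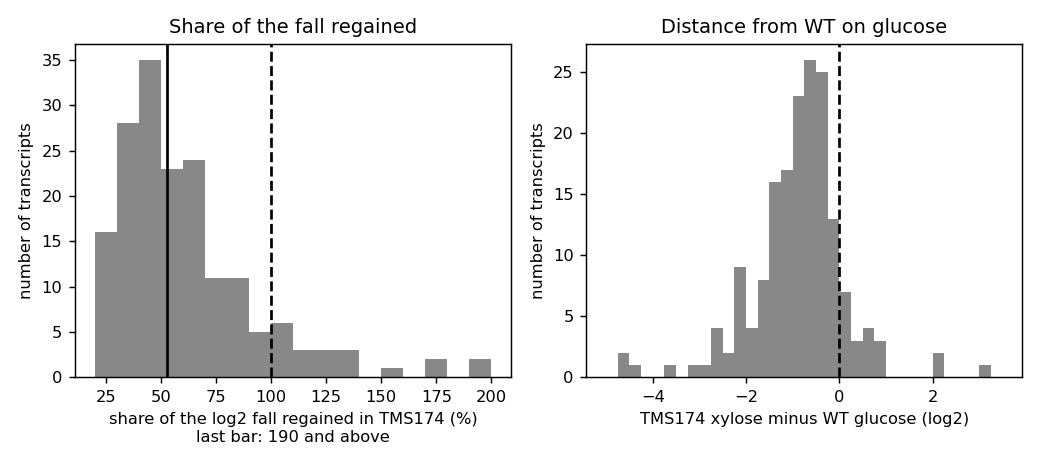
Left, histogram of the share of the log2 shortfall on xylose that TMS174 made up, for the 173 transcripts (solid line, median of 52.9%; dashed line, 100%). Right, histogram of the log2 difference between TMS174 on xylose and wild type on glucose for the same transcripts (dashed line, 0). The 20 transcripts at or right of the dashed lines reached the glucose mean.

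Members with a deeper shortfall made up a smaller part of it, although the same wild-type xylose arrays enter both quantities and the 1.5-fold threshold is a larger part of a small shortfall. For the 105 members with a shortfall of 1 to 2 on the log2 scale, TMS174 lay above wild type on xylose by a median of 0.86, and the median share was 60.9%. The 59 members with a shortfall of 2 to 4 had a median difference of 1.02 between the strains and a median share of 40.8%. The 9 members with a shortfall above 4 had a median difference of 2.30 and shares of 22.2% to 116%. The 9 deepest thus include both the smallest share of the set and shares past 100%.

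Of the transcripts named, cut01g0520002 had both the largest shortfall on xylose and the largest difference between the strains. Its level was -1.41, -0.87 and -1.86 on the glucose arrays, -10.2, -8.95 and -9.17 on the wild-type xylose arrays and -2.05 and -2.17 in TMS174. The wild-type xylose values lay far below all others, and only 2 of those 3 arrays were above background. It was at least 188-fold lower on xylose than on glucose in the wild type and at least 113-fold higher in TMS174 than in wild type on xylose. Each bound takes, for each array of the dim group, the larger of 2 levels. These are the design ID's own level and that of the array's dimmest probe still well above background. The bounds hold only for the processing used for these levels. Under normexp background correction, which compresses dim signals, its log2 differences were -4.71 between the sugars and 3.97 between the strains, against -8.05 and 7.32. It then ranked behind cut01g0020953 (-5.83) and cut01g0021005 (5.84). TMS174 and glucose arrays did not overlap, and the difference of -0.73 (SE 0.40) between TMS174 and wild type on glucose did not pass the test (limma adjusted p = 0.15).

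The second largest difference between the strains was that of cut01g0021005. Its level was 3.06, 3.25 and 3.09 on glucose, -2.81, -1.23 and -2.10 on xylose in the wild type and 3.94 and 3.96 in TMS174. The 3 groups did not overlap, and TMS174 was the highest. The transcript was 36.2-fold lower on xylose than on glucose in the wild type and 63.7-fold higher in TMS174 than in wild type on xylose. Its excess over wild type on glucose was 0.81 (SE 0.39), which did not pass the test (limma adjusted p = 0.11).

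The 2 members whose TMS174 mean stood furthest above glucose were 2.14-fold and 3.63-fold lower on xylose than on glucose in the wild type, far less than the 2 transcripts above. The level of cut01g0021150 was -2.02, -1.89 and -2.12 on glucose, -3.47, -2.70 and -3.15 on xylose in the wild type and 1.21 and 1.04 in TMS174. Its shortfall was thus close to the threshold of the rule, and it stood 8.80-fold above the wild-type glucose mean in TMS174. For cut01g0030551 the levels were -3.41, -3.13 and -2.93 on glucose, -4.98, -5.31 and -4.75 on xylose and -1.19 and -0.94 in TMS174, which is 4.25-fold above the wild-type glucose mean. In these transcripts every TMS174 array lay above every glucose array, and every glucose array above every wild-type xylose array. Both were named for this distance, so no test of it is given.

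At the other end, 2 members with consecutive numbers, cut01g0020952 and cut01g0020953, lay lowest relative to glucose. The level of cut01g0020953 was 1.08, 1.63 and 0.37 on glucose, -8.41, -5.59 and -4.51 on xylose in the wild type and -3.62 and -3.33 in TMS174. That of cut01g0020952 was -2.18, -1.62 and -3.07 on glucose, -8.95, -8.10 and -7.45 on xylose in the wild type and -6.95 and -6.78 in TMS174. In both, the groups did not overlap, and TMS174 lay much nearer to wild type on xylose than on glucose. They remained 22.6-fold (cut01g0020953) and 23.9-fold (cut01g0020952) below wild type on glucose and had made up 37.5% and 22.2% of the log2 shortfall. Under normexp background correction the log2 differences of TMS174 from glucose were -4.17 for cut01g0020953 and -3.145 for cut01g0020952, against -4.50 and -4.58. The order of the 2 and the size of these folds thus depended on the processing. Their differences of 2.70 and 1.31 between TMS174 and wild type on xylose did not pass the limma test (adjusted p = 0.11 and 0.12). The wild-type xylose arrays of cut01g0020953 spread over an SD of 2.01, with replicate 1 the lowest, and the log2 difference of TMS174 from the nearest of them was smaller than that spread.

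**Figure D3:**
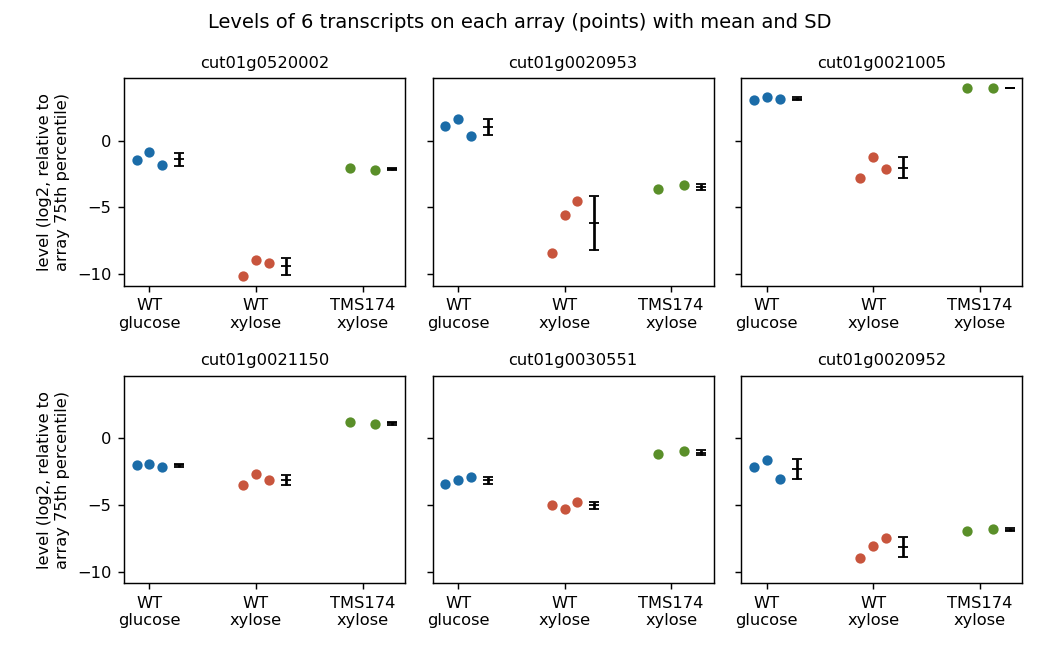
Level (log2 of the signal over the array's 75th percentile) of 6 named transcripts on each array, with the mean and SD of each group beside the points. In cut01g0520002 and cut01g0021005 TMS174 is close to or above the glucose arrays, in cut01g0021150 and cut01g0030551 it is above them, and in cut01g0020953 and cut01g0020952 it stays far below them.

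The design IDs share a prefix followed by 7 digits. Read as a group of 3 digits and a running number of 4, these make 488 number groups, the first 8 of which (000 to 007) hold most of the array. The labels and files do not say what the groups stand for, and the rule did not use them. Membership was uneven across the groups. In groups 000 to 007, 130 of 6653 design IDs above background in wild-type glucose and TMS174 were members (1.95%, from 1.27% to 3.38% by group). In number group 008, 14 of 19 were members (73.7%), which is 8.09% of the whole set. With levels set relative to spike-in controls, only 2 design IDs of group 008 met the rule. With the thresholds then set relative to the medians of all tested design IDs, all 173 members met them, these 14 included. Group 011 had 4 members of 12, and all groups after 008 together had 29 of 563 (5.15%). Over the whole array the share was 2.39%. The reading of the digits and this count were chosen after the values were seen, and no test of the unevenness was made.

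**Figure D4:**
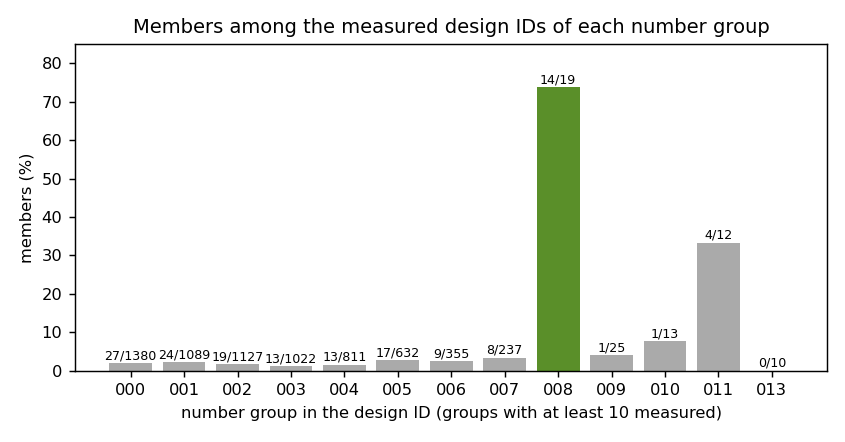
Share of members (%) among the design IDs above background in wild-type glucose and TMS174, for each number group with at least 10 such design IDs; the counts stand above the bars. Group 008 reaches 73.7% (14 of 19), against 1.27% to 3.38% in groups 000 to 007, at the 75th percentile scaling.

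The 14 members of number group 008 showed one order of group means, glucose above TMS174 above wild-type xylose. Their median level was -3.10, -3.07 and -2.75 on the glucose arrays, -4.20, -4.15 and -4.34 on the wild-type xylose arrays and -3.49 and -3.29 in TMS174. For each of the 14, every wild-type xylose array lay below every glucose array and below every TMS174 array. The rule selected for both orders, which held in 167 and 165 of all 173 members (35.8% and 26.1% of all tested), so nothing is read from them about group 008. The shortfall on xylose ran from -1.02 to -2.82 and the difference between the strains from 0.72 to 2.06. TMS174 made up 42.9% to 84.6% of the shortfall, and its mean stayed below the glucose mean for all 14, by -0.16 to -1.28. Only 20 of all 173 members reached the glucose mean. The limma test between TMS174 and wild type on glucose called 9 of the 14, all lower. It called 113 of all 173 members lower (65.3%), and over all tested 33.1% were called lower and 29.4% higher. Nothing particular to group 008 is read from these counts. The quartiles of the share made up were 54.2% and 72.0% for the 14 (median 63.0%) and 38.9% and 74.1% for the 159 other members (median 50.7%), and they overlapped.

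Values on each array are given for 2 of the 14. The design ID of group 008 with running number 6 was at 1.17, 1.18 and 1.53 on glucose, -0.77, -0.70 and -0.57 on xylose in the wild type and 0.18 and 0.39 in TMS174. That with running number 25 had the deepest shortfall among these members, with levels of -3.53, -3.58 and -3.71 on glucose, -6.44, -6.40 and -6.43 on xylose and -4.54 and -4.20 in TMS174. In both, the 3 groups did not overlap and TMS174 lay between the others; both were picked after their values were seen.

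The remaining design IDs of group 008 were examined as well. Of its 26 design IDs, 6 were not well above background on any array. Of the 20 others, 17 were at least 1 lower on xylose in the wild type and were higher in TMS174 than in wild type on xylose, by at least 0.48. Of the 17, 14 were the members, which the rule chose for this pattern. The value of 0.48 is the smallest found among the 17 and was not set beforehand. No share over the array is given at that limit, so nothing is read from the 17. The 3 of the 17 that were not members had running numbers 1, 20 and 23. Numbers 1 and 20 lay above wild type on xylose by 0.48 and 0.52 in TMS174, just under the threshold, and number 23 was not above background on every array required. Numbers 14, 16 and 17, above background on all 8 arrays, did not share the pattern, with differences between wild-type xylose and glucose of 0.04, 0.51 and 0.12 and between the strains of -0.29, -0.25 and 0.03. Group 008 also differed in array design, since 23 of its 26 design IDs had a single probe, against 2000 of 8604 over the array. Its single-probe values therefore have no check by a further probe.

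**Figure D5:**
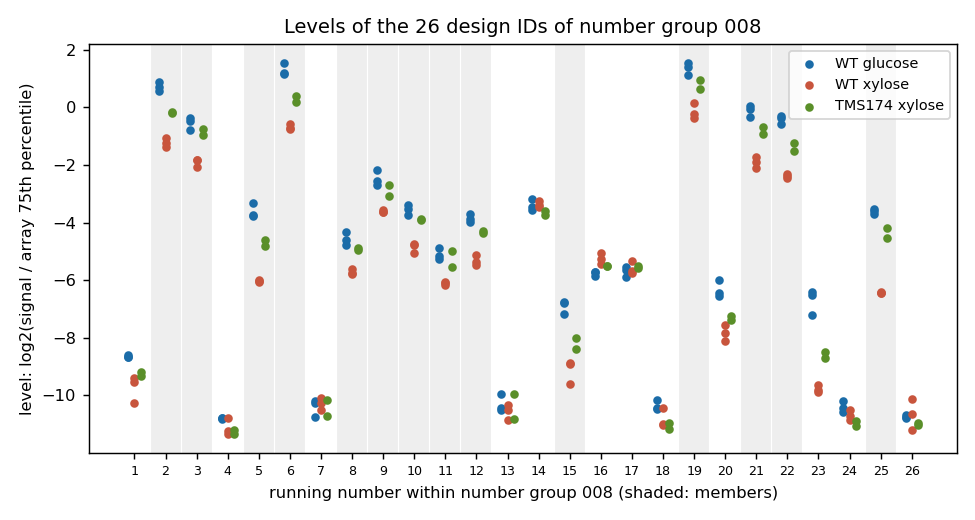
Level (log2 of the signal over the array's 75th percentile) on each array for the 26 design IDs of number group 008, by running number; shaded columns are the 14 members. In the shaded columns the wild-type xylose points are lowest and the TMS174 means lie between the wild-type groups; the 6 columns with every point at about -10 or lower are design IDs not above background on any array.

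Outside group 008, 45 of 159 members stood in runs of consecutive numbers, as 21 pairs and 1 run of 3. No count of such runs among other design IDs is given here. The 193 non-members numbered next to a member had median differences of -0.10 between the sugars and 0.03 between the strains. Over the 7235 design IDs above background in wild-type glucose and TMS174 these were -0.04 and -0.01. Of the 193, 19 were at least 2-fold lower on xylose, against 878 of the 7235. The 7235 and the 878 include the 173 members, which the 193 leave out, so these are not like sets. Without the members, 705 of the 878 remain. The run of 3 holds cut01g0020952 and cut01g0020953. Its wild-type difference between xylose and glucose ran from -7.20 to -5.88, and its difference between the strains from 1.31 to 2.70. None of the 3 passed the limma test between the strains. A pair in number group 003 had shortfalls of -1.87 and -2.15 and stood 2.42 and 2.75 above wild type on xylose in TMS174, past the glucose mean by 0.55 and 0.60. In a pair of group 007, cut01g0070238 was at -4.70, -4.77 and -4.16 on glucose, -7.80, -8.07 and -7.55 on xylose in the wild type and -4.51 and -4.28 in TMS174, so that its TMS174 values lay among the glucose values. Its neighbour cut01g0070239 was at -7.46, -7.40 and -6.75 on glucose and -7.23 and -6.99 in TMS174, was not well above background on any wild-type xylose array, and was at least 3.48-fold lower there than on glucose and at least 3.70-fold lower than in TMS174. The pairs were picked after their values were seen, and each of the last 2 design IDs had a single probe. Whether consecutive design IDs share sequence was not tested, since no probe sequence is given here.

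Probes of the same design ID could be compared for the 117 members that had 2. The members were chosen on the mean of these probes, so that agreement in direction, found in all 117, is no independent check. Both probes met both thresholds by themselves for 92. The median absolute difference between the probes was 0.09 for the change between the sugars and 0.09 for that between the strains, against 0.07 and 0.07 over 6143 design IDs with 2 probes. A single probe stood for 56 members (32.4%), against 15.1% of the 7235.

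Arrays of a group spread more among members, by the median, than over all transcripts. The median SD between arrays was 0.21 on glucose, 0.18 on xylose in the wild type and 0.15 in TMS174, against 0.14, 0.10 and 0.07 over the 7235. The 705 xylose-lowered transcripts that did not meet the strain threshold had median SDs of 0.17, 0.13 and 0.08. They also had a smaller median shortfall (-1.34) and a TMS174 mean at a median of -1.41 from glucose, against -0.77 for the members; the rule itself contributes to both. For 9 members the SD between wild-type xylose arrays was above 1, and replicate 1 was the lowest in all 9. The widest, cut01g0001239, had wild-type xylose levels of -3.39, 1.91 and 2.98 (SD 3.41) against 2.46, 2.42 and 2.76 on glucose and 1.39 and 1.02 in TMS174. Its groups overlapped and its membership rested on that 1 array, since the other wild-type xylose values lay above both TMS174 values. Without wild-type xylose replicate 1 the rule gave 160 members, 147 of them among the 173.

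Arrays kept out of the choice gave the only values of the same differences that the choice had not used in full. When the members were chosen without TMS174 replicate 1, 195 design IDs met the rule. In the omitted array 189 of them lay above the wild-type xylose mean, by a median of 0.80, and 141 by at least 1.5-fold. Without TMS174 replicate 2 there were 160, of which 159 lay above that mean in the omitted array, by a median of 1.04, and 140 by at least 1.5-fold. The wild-type xylose mean entered both the choice and these differences.

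With wild-type xylose replicates 1, 2 and 3 omitted in turn, 160, 180 and 185 design IDs were chosen. In the omitted array 160, 179 and 183 of these lay below the glucose mean, with medians of -1.84, -1.62 and -1.69. The TMS174 mean lay above the omitted array for 158, 176 and 175 of them, by medians of 0.96, 0.88 and 0.86. Omitting glucose replicates 1, 2 and 3 gave 173, 174 and 170 design IDs, of which 171, 173 and 169 were lower on xylose than in the omitted array. Each omitted array thus showed the direction of the rule for nearly all design IDs chosen on the others, with fewer of them past the thresholds. The group means set against each omitted array had entered the choice, which favours that direction. No share over all design IDs is given beside these counts, so they are no independent replication. These are values, with no test.

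Membership was graded at the edges. The members closest to the first threshold had wild-type differences of -1.0015, -1.0173 and -1.0181, and the nearest transcripts outside it, which met the other criteria, -0.9991, -0.9948 and -0.9909. At the second threshold the closest members lay 0.5893, 0.5943 and 0.5946 above wild type on xylose, and the closest outside it 0.5848, 0.5822 and 0.5763. Within 0.1 of the thresholds there were 12 members inside the first and 11 transcripts outside it, and 32 members inside the second and 39 outside it.

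The size of the set also depended on the reference for the levels. Relative to 6 spike-in control probes, the median over all tested design IDs moved to 0.42 between the sugars and to -0.58 between the strains, and 48 design IDs, all of them among the 173, met the thresholds. With the thresholds set relative to those medians, 196 met them, including all 173. Normexp background correction gave 118, of which 115 were among the 173. The labels do not state the amounts of spike-in.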

How the data were processed

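Spot signal intensity was deposited in Agilent Feature Extraction 9.5.3.1 files, per the file headers: background-subtracted, linear, and not normalized between arrays. A deposited table gives, as its values show, the ratio of that signal to 1 number per array; how that number was chosen is not stated there. No spot was saturated. The share of the 15208 yeast probes with signal well above background was 87.8% to 95.2%; the number of arrays limits the precision.

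From these values, log2 of the signal over each array's 75th percentile was averaged over all probes of a design ID. Control spots were left out. The fit also left out outlier-flagged spots (0 to 10 per array), which the choice of members kept; 1 member was affected. The 7970 design IDs above background on at least 2 arrays entered a limma fit (version 3.58.1, R 4.3.3; group means over all 8 arrays, 5 residual degrees of freedom, eBayes, Benjamini-Hochberg adjusted p under 0.05, two-sided p-values). The steps were checked on simulated data. The p-values reflect only the spread among these cultures.

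Members, lists and tests were chosen with earlier results of these data known. Named design IDs are the 2 members with the largest shortfall on xylose, the 2 with the largest difference between the strains, and the 2 highest and 2 lowest relative to wild type on glucose (6 in all). Alternatives covered scaling, background correction, probe filters, the deposited ratio table, the fit's design and leaving out each array. The RefSeq table's coordinates were not used here.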

Additional observations from a re-analysis of the deposited data

How the results depend on the processing

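Under spike-in scaling the set held 48 design IDs, and the median share of the shortfall made up was 26.4% for the 173 members. Of the members, 52 were called higher in TMS174 than in wild type on xylose, and 2 design IDs of number group 008 met the rule. With the thresholds then set relative to the medians of all tested design IDs, 196 met them, including all 173. Such thresholds cancel the difference between the 2 scalings, so nothing is read from that count. The cause of the shift was not tested. Stricter rules gave 75 members with a strain difference of at least 1, 68 with a shortfall of at least 2 and, by construction only among design IDs with 2 probes, 92 where both probes met the rule. Leaving out each array gave 160 to 195 members, 12 to 16 of them in number group 008, a median share of 50.7% to 55.4%, 164 to 168 calls lower on xylose in the wild type, 56 to 148 calls higher in TMS174 than in wild type on xylose (lowest with a TMS174 array left out, where the lone array is assumed to vary like the other groups), and 97 to 125 calls between TMS174 and wild type on glucose. The replicate number as a block gave 167, 111 and 120 calls in these 3 contrasts, against 167, 127 and 120 without it. Deviations of same-numbered arrays from their group means had correlations of -0.14 to 0.17 (7 pairs, 2 of them above 0.1). Deviations within a group of 2 or 3 arrays depend on each other, so these values cannot show whether same-numbered arrays share a batch. Median scaling gave 212 members and quantile normalization 229; the 6 design IDs named by the rule kept their direction, in the contrasts they were named for, under every alternative that gave a value (cut01g0520002 had none with probes above background on all 8 arrays). With 2 TMS174 arrays on a slide of their own and no gene names, neither the strain's part nor the transcripts' functions can be read from these values.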
